A study of Homo sapiens with 4 samples.

Results

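The genes described here are 10 genes of the cytosolic RNA- and DNA-sensing pathway, namely *DDX58*, *IFIH1*, *DHX58*, *TLR3*, *MB21D1*, *AIM2*, *MAVS*, *TMEM173*, *TBK1* and *IRF3*. They were chosen by symbol from the 57820 genes in a table of transcript counts, and all 10 were found, each with 1 Ensembl gene identifier. The counts come from SK-N-SH, an established human neuroblastoma cell line. In the *RP5-998N21.4* OE libraries (n = 2), the cells had been transduced with a lentivirus carrying the lncRNA *RP5-998N21.4* behind the EF1a promoter. In the vector control libraries (n = 2), they had received the lentivirus without an insert. The control titles read wild type, but both conditions are of transduced cells, and no library of untransduced cells was analysed here. The sources used here do not say whether the 2 libraries of a condition came from separate cultures. The p-values below therefore measure the spread between libraries, which may be technical.

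Cells detect foreign or misplaced nucleic acid with a small set of receptors. RIG-I (*DDX58*), MDA5 (*IFIH1*) and LGP2 (*DHX58*) are helicases that bind double-stranded RNA in the cytosol, and TLR3 binds it in endosomes. RIG-I and MDA5 signal through the mitochondrial adaptor MAVS. On the DNA side, cGAS (*MB21D1*) binds double-stranded DNA and makes a cyclic dinucleotide that activates the adaptor STING (*TMEM173*), while AIM2 starts an inflammasome. MAVS and STING converge on the kinase TBK1, which phosphorylates the transcription factor IRF3, and IRF3 induces interferon beta and a first wave of antiviral genes. Several of the sensors are themselves interferon-inducible.

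Total counts were 23785164 and 24098041 with the empty vector, against 24601728 and 28307591 with OE. *RP5-998N21.4* had 32 and 33 counts with the empty vector, against 2407 and 2808 with OE. Of 10 adrenergic neuroblastoma markers, 9 had a mean above 1 CPM (counts-per-million, on TMM-normalized library sizes), and the defining gene *TH* had 0 counts in every library. Their summed level was 594 and 663 CPM in the vector control and 1061 and 1005 CPM in the OE libraries. In 9 of the 10, both OE libraries were above both controls, against 27.8% of all tested genes. Of the 10, 7 were higher at a raw edgeR p under 0.05, against 10.1% of all tested genes, and *PHOX2A*, *ISL1* and *TH* were not. The part of this difference in the results below was not tested. Of 8 immune cell markers, 0 had a mean above 1 CPM, with summed levels from 1.79 to 2.21 CPM and 0 counts of *CD3E*, *MS4A1* and *LYZ*.

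The RefSeq promoter table (GRCh38.p14, 250 bases before to 50 bases after each gene's start) held 6 of the 10 genes. It was searched on both strands for the core of the interferon-stimulated response element (ISRE), the letters GAAA, any 2 bases and again GAAA, which interferon regulatory factors bind. Only the 3 promoters with a match are shown. Whether a match goes with a difference between conditions was not tested. Each sequence runs 5′ to 3′ on the gene's strand, from 200 bases before the start to the 10th base of the gene, with the ISRE matches in capitals.

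*IFIH1*, chr2:162318675-162318884, minus strand: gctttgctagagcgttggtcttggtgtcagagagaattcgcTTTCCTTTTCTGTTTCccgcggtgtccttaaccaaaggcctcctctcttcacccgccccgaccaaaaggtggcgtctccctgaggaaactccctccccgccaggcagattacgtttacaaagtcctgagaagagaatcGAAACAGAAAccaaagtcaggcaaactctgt

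*TLR3*, chr4:186068956-186069165, plus strand: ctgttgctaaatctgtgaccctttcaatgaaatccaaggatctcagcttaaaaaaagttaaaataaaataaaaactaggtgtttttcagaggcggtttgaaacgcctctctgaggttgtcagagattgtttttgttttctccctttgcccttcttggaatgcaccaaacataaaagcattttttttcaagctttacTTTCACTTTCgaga

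*AIM2*, chr1:159076757-159076966, minus strand: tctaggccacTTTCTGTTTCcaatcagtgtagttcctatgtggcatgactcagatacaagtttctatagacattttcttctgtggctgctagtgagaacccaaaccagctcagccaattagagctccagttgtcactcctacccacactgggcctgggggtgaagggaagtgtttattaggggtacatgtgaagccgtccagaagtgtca

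*IFIH1* held 3 matches, of which 2 overlap each other in the capitals farther from the start. *TLR3* held 1 match that spans the start site, and *AIM2* held 1. Among all 27305 promoters of the same length in the table, 3.65% held a match. *DDX58*, *MAVS* and *TBK1* had 0 matches in this window, which says only that these letters were not in it. The core of the gamma-activated site, the letters TTC and GAA with any 3 bases between them, was found in 1 of the 6 promoters, that of *TLR3*, with 2 matches that overlap no ISRE match, and in 7.88% of all promoters. *DHX58*, *MB21D1*, *TMEM173* and *IRF3* had no entry in the table.

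The OE libraries were tested against the controls over 20528 genes with edgeR's quasi-likelihood test, and p-values were adjusted over all of them. *DHX58* and *MB21D1* did not pass the filter on low counts, so 8 of the 10 genes were tested. With the study's thresholds, which ask for an adjusted p below 0.01 and a log2 fold change beyond 0.5 either way, edgeR called 0 of the 8 genes, and 0.0% of all tested genes. With an adjusted p below 0.05 and the same fold change it again called 0, against 0.594% of all tested genes. With the study's thresholds DESeq2 called 1 of the 8, against 8.77% of all tested genes, and limma-voom called 0, with 0.0% of all tested genes. Before adjustment, at p under 0.05 with edgeR, *IFIH1* was higher and *MAVS* lower in the OE libraries, 2 of the 8 against 20.8% of all tested genes, and DESeq2 placed 4 of the 8 there against 28.9%. With upper-quartile normalization the 2 were *IFIH1* and *TLR3*, both higher, and *MAVS* was no longer among them, and without OE replicate 2 both were lower genes. The OE pair was wholly above the control pair in 2 genes (*IFIH1* and *TLR3*, against 27.8% of all tested genes) and wholly below it in 4 genes (*AIM2*, *MAVS*, *TMEM173* and *TBK1*, against 27.6%). These 6 of 8 genes compare with 55.4% of all tested genes whose conditions do not overlap. The median log2 fold change was -0.19 over the 8 genes and 0.01 over all tested genes.

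**Figure D1:**
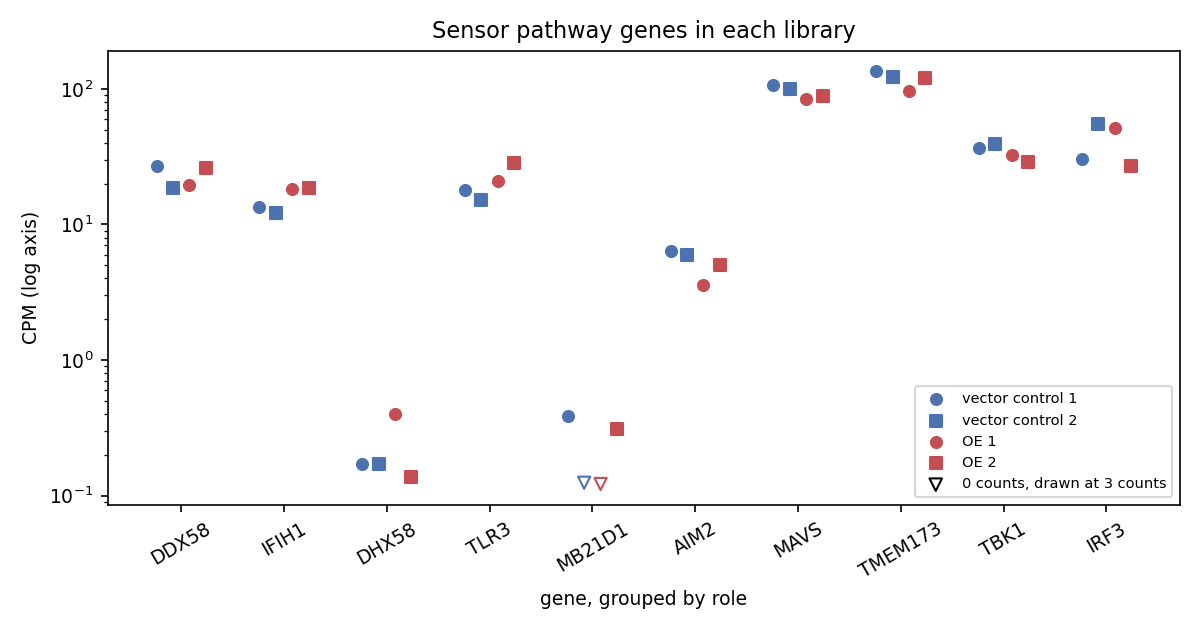
CPM of the 10 genes on a log axis, grouped by role, with 1 point per library (blue for vector control, red for OE, circles for replicate 1 and squares for replicate 2). An open triangle stands for 0 counts and is drawn at the level of 3 counts. The OE points lie above the vector control points for *IFIH1* and *TLR3*, and below them for *AIM2*, *MAVS*, *TMEM173* and *TBK1*.

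*IFIH1* (ENSG00000115267.5) encodes the sensor of long double-stranded RNA and lies at positions 163123584 to 163175194 of chromosome 2 (minus strand, hg19 as for all genes here). It had 313 and 287 counts with the empty vector, against 455 and 538 with OE. Both OE libraries were higher than both vector control libraries, and the replicates lay close together. Its level was 12.8 ± 0.868 CPM (SD, n = 2) with the empty vector against 18.4 ± 0.33 CPM (SD, n = 2) with OE. The log2 fold change was 0.52 (SE 0.121, edgeR adjusted p = 0.147), and the difference exceeded the SD between replicates. The SE is the standard error of the log2 fold change. *IFIH1* was the gene that DESeq2 called (adjusted p = 0.00203 from DESeq2's Wald test). Over all alternatives its adjusted p ranged from 0.00203 to 0.343. All its counts were on 1 of its 3 listed transcripts.

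*TLR3* (ENSG00000164342.8), the endosomal receptor for double-stranded RNA, lies at positions 186990065 to 187009227 of chromosome 4 (plus strand). It had 417 and 358 counts with the empty vector, against 525 and 825 with OE. Both OE libraries were higher, but they differed from each other more than the vector control libraries did. In CPM the vector control was at 16.6 ± 1.89 (SD, n = 2) and OE at 24.7 ± 5.37 (SD, n = 2). The log2 fold change was 0.58 (SE 0.210, edgeR adjusted p = 0.251), and the unadjusted p was 0.0554. It was 0.34 without OE replicate 2, the library with 825 counts, and 0.78 without OE replicate 1. All counts were on 1 of 5 listed transcripts.

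*DDX58* (ENSG00000107201.5), the sensor of short and 5′-triphosphorylated RNA, lies at positions 32455300 to 32526206 of chromosome 9 (minus strand). Its counts were 631 and 435 with the empty vector, against 492 and 750 with OE. The conditions overlapped, with the highest and the lowest CPM both in the vector control. Its level was 22.8 ± 6.07 CPM (SD, n = 2) with the empty vector against 22.8 ± 4.47 CPM (SD, n = 2) with OE, and the log2 fold change was -0.0022 (SE 0.267, edgeR adjusted p = 0.997). With a library left out, it lay between -0.26 and 0.30, so a difference of that size could not be told from the spread between replicates. A gene that the annotation places on the same strand shares exon sequence with *DDX58*, and its counts are uncertain to the extent that such reads were split.

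*DHX58* (ENSG00000108771.8), the helicase without a signalling domain that modulates its relatives RIG-I and MDA5, lies at positions 40253422 to 40264732 of chromosome 17 (minus strand). It had 4 and 4 counts with the empty vector, against 10 and 4 with OE. These are too few for the test, and a difference was not detectable at this depth. All 4 counts of vector control replicate 1 were on another transcript than those of the other 3 libraries.

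The DNA sensors were at lower counts than the adaptors. *MB21D1* (ENSG00000164430.11), at positions 74123238 to 74162020 of chromosome 6 (minus strand), had 9 and 0 counts with the empty vector, against 0 and 9 with OE. Each 0 allows up to 3 counts, so the 2 conditions cannot be ordered. Without molecular identifiers, limits and intervals of this kind account for counting error alone.

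*AIM2* (ENSG00000163568.9), best known from cells of the immune system, lies at positions 159031389 to 159157633 of chromosome 1 (minus strand). It had 148 and 140 counts with the empty vector, against 90 and 145 with OE. In CPM, which takes up the larger total of OE replicate 2, both OE libraries were below both vector control libraries. The level was 6.16 ± 0.281 CPM (SD, n = 2) with the empty vector against 4.30 ± 1.01 CPM (SD, n = 2) with OE. The log2 fold change was -0.52 (SE 0.231, edgeR adjusted p = 0.316). Without OE replicate 1 it was -0.30, and without OE replicate 2 it was -0.78. *AIM2* counts were present in all 4 libraries, as were counts of the immune markers *CD14* and *CSF1R*. The immune marker *PTPRC* had 0 counts in 3 of them and 4 counts in OE replicate 2. The source of the *AIM2* counts was not tested. All *AIM2* counts were on 1 of its 4 listed transcripts.

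The adaptors *MAVS* and *TMEM173* and the kinase *TBK1* were slightly lower in the OE libraries. *MAVS* (ENSG00000088888.13), at positions 3827446 to 3856770 of chromosome 20 (plus strand), had 2491 and 2358 counts with the empty vector, against 2121 and 2566 with OE. Scaled to library size, its level was 103.7 ± 4.68 CPM (SD, n = 2) with the empty vector against 86.6 ± 2.96 CPM (SD, n = 2) with OE. The log2 fold change was -0.26 (SE 0.0850, edgeR adjusted p = 0.222), with the smallest standard error of the 8 genes. Its adjusted p from DESeq2 was 0.0149, with a change below the threshold of 0.5.

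*TMEM173* (ENSG00000184584.8), at positions 138855118 to 138862520 of chromosome 5 (minus strand), had 3137 and 2901 counts with the empty vector, against 2418 and 3455 with OE. Its level was 129 ± 7.96 CPM (SD, n = 2) with the empty vector against 107.9 ± 16.3 CPM (SD, n = 2) with OE. The log2 fold change was -0.26 (SE 0.140, edgeR adjusted p = 0.388). It was -0.11 without OE replicate 1 and -0.42 without OE replicate 2, so OE replicate 1 carried most of the difference.

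*TBK1* (ENSG00000183735.5), at positions 64845870 to 64895894 of chromosome 12 (plus strand), had 853 and 929 counts with the empty vector, against 818 and 837 with OE. Its level was 38.1 ± 2.05 CPM (SD, n = 2) with the empty vector against 30.8 ± 2.59 CPM (SD, n = 2) with OE. This gave a log2 fold change of -0.31 (SE 0.115, edgeR adjusted p = 0.259). The annotation places exons of 1 other gene on those of *TBK1* on the same strand and of 1 on the other strand, which leaves its counts uncertain to that extent.

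**Figure D2:**
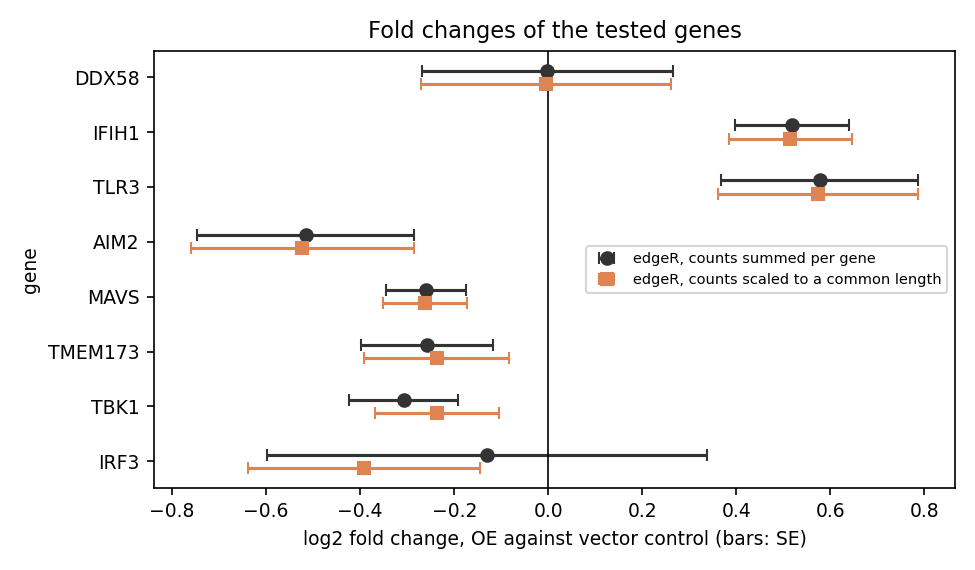
Log2 fold change of the 8 tested genes, OE against vector control, with bars of 1 standard error from edgeR, for counts summed per gene (black) and for counts scaled to a common transcript length per gene (orange). *IFIH1* at 0.52 and *TLR3* at 0.58 lie to the right of 0, and the bars of *DDX58* span 0 in both fits.

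*IRF3* (ENSG00000126456.11), the transcription factor at the end of the chain, lies at positions 50162826 to 50169132 of chromosome 19 (minus strand). Its summed counts were 707 and 1303 with the empty vector, against 1289 and 783 with OE. The conditions overlapped, and the gap between replicates was larger than the difference between the means of the conditions. Its level was 42.9 ± 17.7 CPM (SD, n = 2) with the empty vector against 39.2 ± 17.2 CPM (SD, n = 2) with OE, and the log2 fold change was -0.13 (SE 0.467, edgeR adjusted p = 0.905).

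The gap between replicates of *IRF3* went along with the transcript that held the counts. The protein-coding transcript ENST00000309877.7 took 645 of 707 counts in replicate 1 of the vector control and 674 of 783 in OE replicate 2. In vector control replicate 2 it had 0 counts, and in OE replicate 1 it had 60. There, the transcript ENST00000597636.1, annotated as a target of nonsense-mediated decay, held 1154 and 1229 counts, and it had 0 counts in the other 2 libraries. The annotated lengths are 1691 nt for the coding transcript and 2874 nt for the other. Per kilobase of transcript and on the raw total of each library (counts-per-million without the TMM factors, divided by length), the 2 transcripts together were at 16.04 and 16.7 with the empty vector and at 18.8 and 14.1 with OE. This sum leaves out the other 3 transcripts with counts, among them ENST00000599680.1 (472 nt) with 25 and 149 counts with the empty vector and 0 and 72 with OE. Over all its transcripts *IRF3* was at 37.1 and 55.8 TPM (counts per kilobase, scaled to the same sum in each library) with the empty vector and at 35.2 and 39.0 TPM with OE, so vector control replicate 2 remained above the others.

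With the counts of every gene scaled to a common transcript length, a setting chosen after the values were seen, the log2 fold change of *IRF3* was -0.39 (SE 0.247, edgeR adjusted p = 0.455). The exons of *IRF3* also share sequence with those of *BCL2L12* on the other strand, and the use of strand in counting is not given in the sources used here. A transcript with most counts that differed within both pairs of replicates was found in 532 of 8013 genes (6.64%) that averaged 10 CPM or more and had counts on 2 or more transcripts. Of the sensor pathway genes, 4 were among these 8013, and *IRF3* was the 1 with this pattern.

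**Figure D3:**
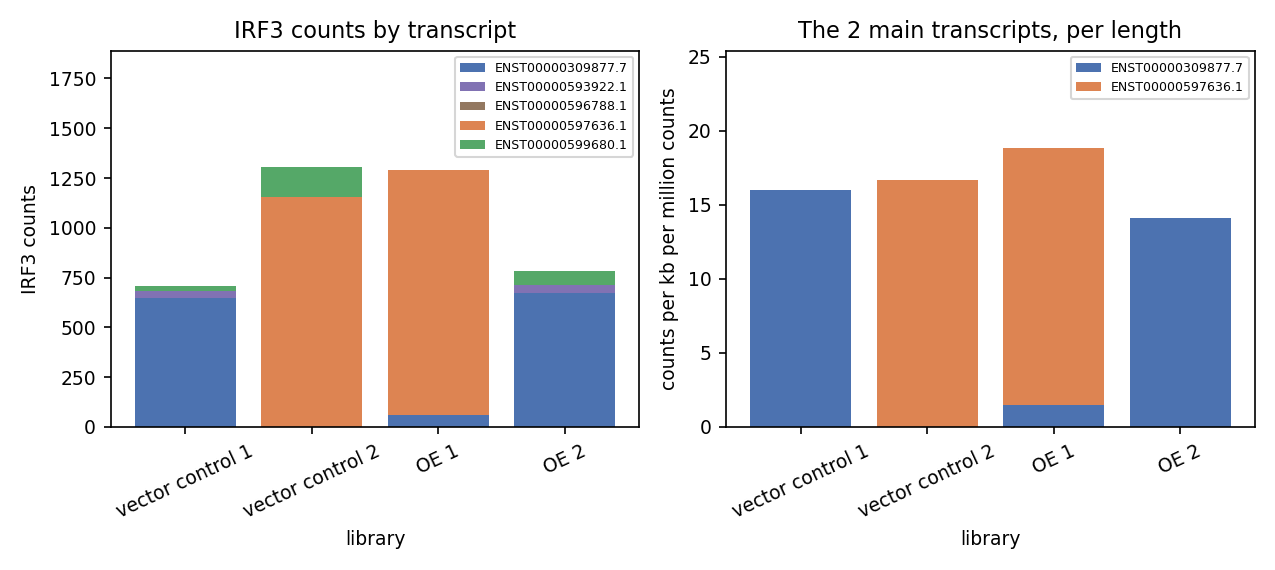
*IRF3* in each library. The left panel stacks the counts of its 5 transcripts with counts, and the right panel stacks the 2 main transcripts per kilobase and per raw library total. Libraries with most counts on ENST00000597636.1 have 1303 and 1289 counts, against 707 and 783 in the others. The per-length values of the 2 main transcripts alone lie between 14.1 and 18.8.

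*MAVS* had all counts on 1 of 3 listed transcripts, and *TBK1* had from 97.1% to 99.8% of its counts on ENST00000331710.5. In *TMEM173*, from 98.5% to 100.0% of the counts were on ENST00000507297.1, which the annotation lists as a retained-intron transcript of 3200 nt. The protein-coding *TMEM173* transcript ENST00000330794.4 had 25 counts in OE replicate 2 and 0 counts in the other libraries. Of the 85 transcripts listed for the 10 genes, 21 had counts.

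Levels of different genes were compared as TPM. By mean over the 4 libraries, *TMEM173* was highest at 70.5 ± 9.36 TPM (SD, n = 4), followed by *IRF3* at 41.8 ± 9.45 TPM, *TBK1* at 23.4 ± 2.12 TPM and *MAVS* at 15.3 ± 1.41 TPM. The sensors were lower, with *DDX58* at 8.71 ± 1.78 TPM, *IFIH1* at 7.98 ± 1.86 TPM, *AIM2* at 7.07 ± 1.57 TPM and *TLR3* at 6.53 ± 2.00 TPM. The ranges of these 4 sensors overlapped over all libraries, but their order differed between conditions. With the empty vector, *AIM2* was at 8.55 and 7.81 TPM, above *TLR3* at 5.58 and 4.63 TPM. With OE, *IFIH1* was at 9.33 and 9.80 TPM, above *AIM2* at 4.91 and 7.03 TPM. *DHX58* at 0.192 ± 0.0943 TPM and *MB21D1* at 0.104 ± 0.121 TPM also overlapped and lay far below the rest. In TPM the adaptors, the kinase and the transcription factor were thus above every sensor. The transcripts that hold nearly all counts of *DDX58* and *IFIH1* are not in the annotation used here, and the longest transcript of each gene stood in for their lengths. With the longest transcript for all genes, *TBK1* was at 11.8 TPM, below *MAVS* at 16.6 TPM, *IRF3* was at 29.1 TPM and *AIM2* at 2.70 TPM. *AIM2* was then below *TLR3*, at 7.06 TPM, so the order of *AIM2* and *TLR3* depends on the length used.

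**Figure D4:**
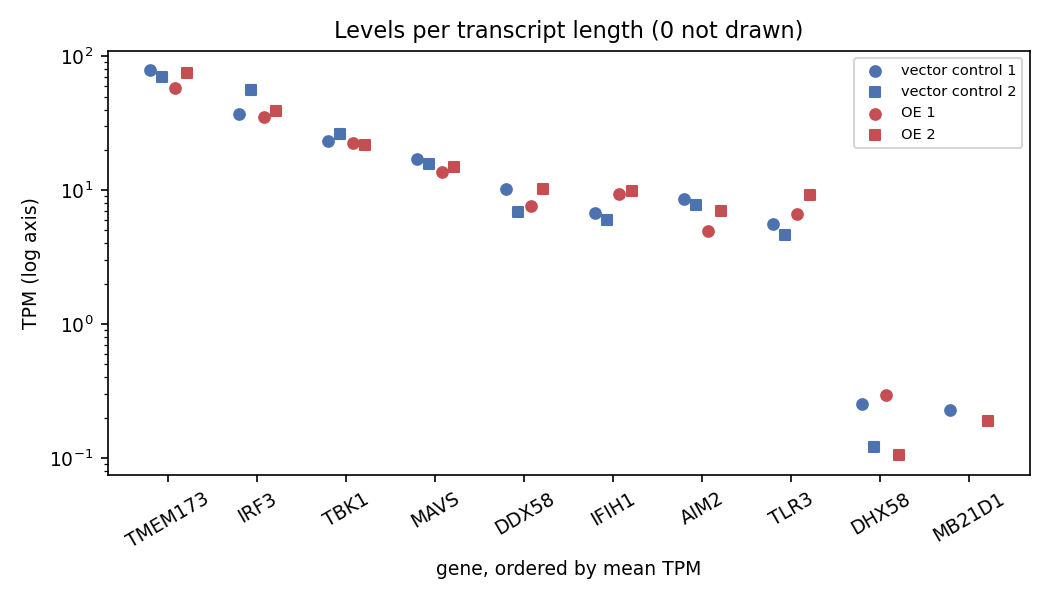
TPM of the 10 genes on a log axis, ordered by their mean, with 1 point per library (blue for vector control, red for OE). The points of *DDX58*, *IFIH1*, *AIM2* and *TLR3* share the range from 4.63 to 10.2, and 2 libraries of *MB21D1* at 0 are not drawn.

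The pathway around these genes was described on 4 lists with 120 genes. Of the cofactors, adaptors and kinases of RNA sensing, 32 of 34 genes were tested, with a median log2 fold change of 0.09. It was 0.04 without vector control replicate 2, 0.05 without OE replicate 2 and 0.02 with the highest transcript only. At a raw edgeR p under 0.05, 4 were higher (*TRIM25*, *DDX60*, *DHX33* and *TOMM70A*) and 1 was lower (*IKBKE*), against 10.1% and 10.7% of all tested genes. Together these were 15.6% of the list, below the 20.8% of all tested genes, and DESeq2 called 0 of the 32 at the study's thresholds, against 8.77%. *TRIM25*, the ubiquitin ligase that acts on RIG-I, had 4824 and 4426 counts with the empty vector, against 6564 and 7263 with OE, a log2 fold change of 0.37 (SE 0.0789, edgeR adjusted p = 0.129). Exons of other genes overlap those of *TRIM25* and *DHX33*, which leaves their counts uncertain. *IKBKE*, the kinase related to TBK1, had 830 and 930 counts with the empty vector, against 727 and 734 with OE (log2 fold change -0.47, edgeR adjusted p = 0.175). Among genes whose conditions did not overlap, the largest differences upward were 0.58 for *IRF7*, the interferon-inducible relative of IRF3, and 0.50 for *DDX60*. *IRF7* was at 0.30 without vector control replicate 1, which had 217 counts against 336 in replicate 2, and at 0.92 without replicate 2. The largest downward were -0.61 for *TANK*, a scaffold of TBK1, and -0.47 for *IKBKE*. *TANK* rested on OE replicate 1, with 651 counts against 1561 and 1567 in the controls and 1787 in OE replicate 2, and was at -0.11 without it.

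Of the DNA-sensing cofactors and other DNA sensors, 27 of 32 were tested, with a median log2 fold change of -0.04. Its sign changed without OE replicate 1 (0.08) and with the highest transcript only (0.01), and it was 0.0004 with upper-quartile normalization. At a raw edgeR p under 0.05, 2 were higher and 3 lower (*POLR3C* and *POLR3A*, and *SURF4*, *NLRP3* and *HMGB1*), 18.5% of the list against 20.8% of all tested genes, and DESeq2 called 2 of the 27 (*POLR3C* and *NLRP3*), against 8.77% of all tested genes. *POLR3C* and *POLR3A*, subunits of the RNA polymerase III that can copy cytosolic DNA into RNA, had log2 fold changes of 0.58 and 0.36. *SURF4*, which takes part in the trafficking of STING, had 9277 and 9971 counts with the empty vector, against 7486 and 9202 with OE (log2 fold change -0.42, SE 0.0687, edgeR adjusted p = 0.0984). *NLRP3*, the sensor of another inflammasome, was at -0.55 (edgeR adjusted p = 0.164). *LRRFIP1* and *DDX41* had the largest differences in either direction, 0.99 and -0.75, each set by 1 library. *LRRFIP1* had 894 counts in vector control replicate 2 and from 4675 to 6714 in the others, and was at 0.23 without that library. *DDX41* had 232 in OE replicate 1 and from 503 to 555 in the others, and was at -0.35 without it. The inflammasome adaptor *PYCARD* had 0 and 0 counts with the empty vector, against 3 and 4 with OE, and *GSDMD* had counts in 1 library.

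Of the negative regulators, 32 of 33 were tested, with a median of -0.09, which was -0.0398 without vector control replicate 2 and -0.0468 without OE replicate 1. At a raw edgeR p under 0.05, 2 were higher (*DUSP4* and *PCBP2*) and 4 lower (*TNFAIP3*, *TREX1*, *RNASEH2B* and *USP21*), 18.8% of the list against 20.8% of all tested genes. DESeq2 called 4 of the 32 at the study's thresholds (*DUSP4*, *TNFAIP3*, *TREX1* and *RNASEH2B*), against 8.77% of all tested genes. *TNFAIP3*, the A20 protein that restrains NF-kappaB and sensor signalling, had 1557 and 1486 counts with the empty vector, against 710 and 952 with OE. Its log2 fold change was -1.09 (SE 0.121, edgeR adjusted p = 0.0693). *TREX1*, the exonuclease that degrades cytosolic DNA, had 724 and 683 counts against 518 and 544 (log2 fold change -0.61, SE 0.113, edgeR adjusted p = 0.113), and it shares exon sequence with *ATRIP*. *RNASEH2B*, a subunit of the enzyme that removes RNA from DNA hybrids, was at -0.83 (edgeR adjusted p = 0.164), and at -1.61 (SE 0.210, edgeR adjusted p = 0.0809) with length-scaled counts. *PCBP2*, which promotes the degradation of MAVS, was at 0.35, *DUSP4*, a phosphatase of MAP kinases, at 0.61, and *DAK*, an inhibitor of MDA5, at 0.40 (0.25 without OE replicate 1) with conditions that did not overlap, and the exons of *DAK* overlap those of other genes on both strands.

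The list of interferons and direct IRF3 output stood highest, with a median log2 fold change of 0.96 over 13 tested of 21 genes. It was chosen with earlier results of these data known. The study had already reported *IFIT2* and *IFIT3* as upregulated in these cells, so this rank is not an independent result. At a raw edgeR p under 0.05, 7 were higher and 1 lower, against 10.1% and 10.7% of all tested genes, and 1 gene (*CCL5*) had an edgeR adjusted p under 0.05. DESeq2 called all 8 of these genes at the study's thresholds, against 8.77% of all tested genes, while edgeR and limma-voom called 0. The 7 higher genes were *CCL5*, *CXCL10*, *CXCL11*, *IFIT1*, *IFIT2*, *IFIT3* and *RSAD2*, and the lower was *IFNE*. Counts of the interferons were low apart from *IFNE*. *IFNB1*, the main target of IRF3 after sensing, had 0 and 2 counts with the empty vector, against 13 and 0 with OE, and *IFNL1* had 4 counts in OE replicate 1 and 0 elsewhere. *IFNA2*, *IFNK*, *IFNW1*, *IFNL2* and *IFNL3* had 0 counts in all libraries. *IFNA1* had 11 and 9 counts against 3 and 9, and its reads may be shared with near-identical interferon alpha genes. *IFNE*, an interferon known from epithelia of the reproductive tract, had 244 and 247 counts with the empty vector, against 142 and 207 with OE, a log2 fold change of -0.71 (SE 0.178, edgeR adjusted p = 0.158).

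*CCL5*, a chemokine with an IRF3-responsive promoter, had 288 and 314 counts with the empty vector, against 1307 and 1574 with OE. Both OE libraries were far above the vector control. It rose to a mean of 53.3 ± 1.65 CPM (SD, n = 2) with OE, where the empty vector gave 12.9 ± 0.704 CPM (SD, n = 2). This gave a log2 fold change of 2.05 (SE 0.104, edgeR adjusted p = 0.0310). Over the alternatives its adjusted p ranged from 3.535e-67 with DESeq2 to 0.2775 with the replicate block, and it was above 0.05 with the block, with any 1 library left out and with the highest transcript only. *CXCL10* and *CXCL11*, chemokines that attract T cells, had log2 fold changes of 3.15 (edgeR adjusted p = 0.0984) and 2.23 (edgeR adjusted p = 0.0893), on at most 25 counts in a vector control library. *RSAD2*, which encodes the antiviral enzyme viperin, had 213 and 232 counts against 473 and 523 (log2 fold change 0.96, edgeR adjusted p = 0.0778). The *IFIT* genes, which encode proteins that bind foreign RNA, had log2 fold changes of 1.33 (*IFIT1*), 0.52 (*IFIT2*) and 0.97 (*IFIT3*). With the highest transcript only, the edgeR adjusted p was 0.933 for *IFIT1* and 0.703 for *IFIT3*, and 6 genes of the list (5 higher) were at a raw p under 0.05 in place of 8. The log2 fold changes of *IFIH1* (0.52) and *TLR3* (0.58) were thus near that of *IFIT2* and below those of the other 6 genes, and differences between genes were not tested.

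**Figure D5:**
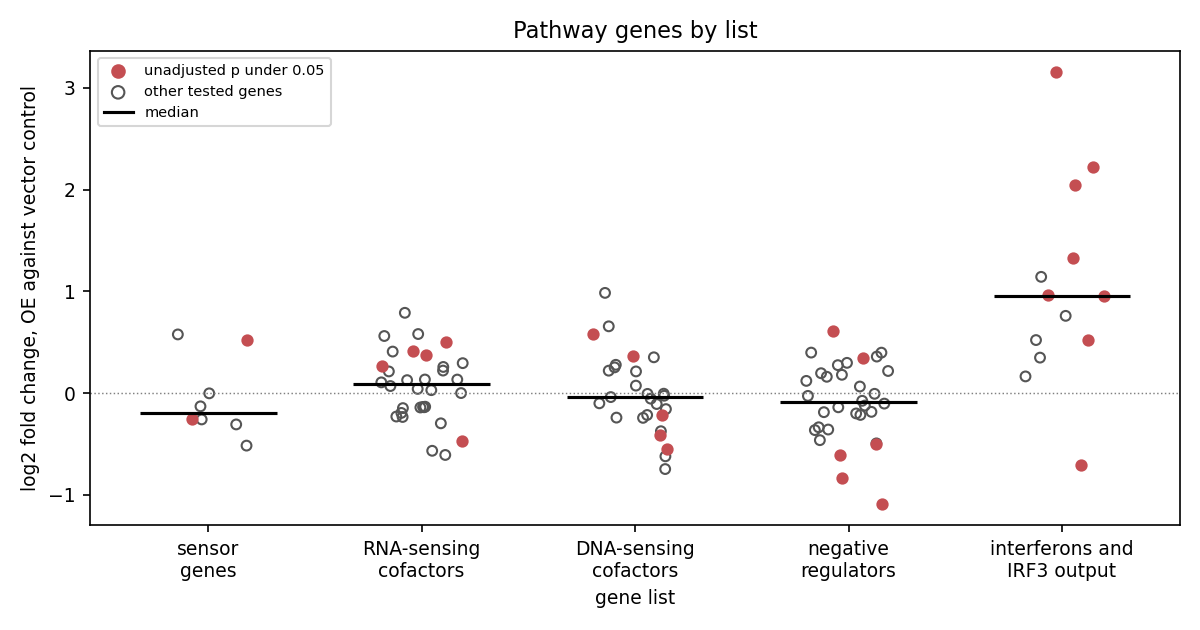
Log2 fold change (OE against vector control) of each tested gene of the sensor set and of the 4 pathway lists, with 1 point per gene, filled red at a raw edgeR p under 0.05, and a bar at the median. The medians are -0.19, 0.09, -0.04, -0.09 and 0.96 from left to right.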

How the data were processed

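RNA was sequenced from 4 SK-N-SH libraries, 2 per condition, grouped by their treatment label. The authors trimmed reads (Trimmomatic) and aligned them to hg19 (Bowtie2 2.0.4). The deposited values are raw counts for each transcript. The submitters' processing notes also name Picard 2.21.6, StringTie 2.1.6 and DESeq2. The counting tool, annotation release and use of strand are not given in the sources used here. How reads were shared among overlapping transcripts could change the counts of single transcripts and genes.

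TPM values were computed here from these counts and transcript lengths. Counts were summed per gene, filtered by filterByExpr, normalized by TMM and tested with edgeR 4.0.16 in R 4.3.3 (quasi-likelihood test, Benjamini-Hochberg adjustment, no covariates). Alternatives were other normalizations and filters, DESeq2 1.42.0, limma-voom (limma 3.58.1), a replicate block, leaving out each library, the highest transcript only and length-scaled counts. Scripts were tested on simulated data with a lower dispersion than these data (common dispersion 0.122), which does not measure the power here. The genes and lists were chosen with earlier results of these data known. Named list genes were the 2 per direction with the largest difference among those of at least 1 CPM whose conditions did not overlap, and all interferon genes. Other genes at an unadjusted p under 0.05 (the *IFIT* genes, *CCL5* and *RSAD2* among them), *PYCARD* and *GSDMD* were named after their values were seen. Positions, lengths and transcript types came from GENCODE 44 lifted to GRCh37, which holds 93.05% of the listed transcripts by identifier (versions differ).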

Additional observations from a re-analysis of the deposited data

How the results depend on the processing

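With 2 libraries per condition and 2 residual degrees of freedom, edgeR's test called 0 of the 8 genes, while DESeq2 called 1 (*IFIH1*, log2 fold change 0.52). The deviations of same-numbered libraries had a correlation of -0.02 over all tested genes. This 1 value cannot decide whether the replicate numbers pair the libraries. With the replicate block 0 genes were called and 1 gene was at an unadjusted p under 0.05 in place of 2. That number was 4 with DESeq2, 1 with a minimum of 1 count in total, and from 0 to 2 with each library left out. The split of 1 higher and 1 lower became 2 higher with upper-quartile normalization and 2 lower without OE replicate 2. *IFIH1*, *TLR3*, *AIM2*, *MAVS*, *TMEM173* and *TBK1* kept their direction under every alternative run. *DDX58* changed sign, to 0.0363 with upper-quartile normalization, 0.0197 with limma-voom, 0.0047 with a minimum of 1 count in total, 0.0095 with the replicate block, and, over the fits with a library left out, ranged from -0.2559 to 0.2954, above 0 without vector control replicate 1 or OE replicate 1. *IRF3* ranged from -0.6645 to 0.3653 with a library left out, above 0 without vector control replicate 2 or OE replicate 2. The cause was not tested.

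Genes at an unadjusted p under 0.05 in the RNA-sensing list (5) numbered 12 with DESeq2 (against 28.9% of all tested genes) and 2 with the replicate block, and from 3 to 5 with each library left out. In the DNA-sensing list (5) there were 3 with the block and from 2 to 6 with a library left out. Among the negative regulators (6) there were 10 with DESeq2 (against the same 28.9%) and 3 with the highest transcript only. The median of the RNA-sensing list lay between 0.0359 and 0.0988 with a library left out, and that of the DNA-sensing list between -0.0962 and 0.0793. The median of the negative regulators was -0.05 with upper-quartile normalization, -0.0611 with the highest transcript and -0.0424 with length-scaled counts (chosen after seeing the data), and from -0.0939 to -0.0398 with a library left out. The interferon and IRF3 output list (8) had 6 with the highest transcript only and from 7 to 8 with a library left out. Its median was 1.18 with the highest transcript and lay between 0.86 and 0.93 with a library left out. With the longest transcript of each gene, the TPM of *AIM2* was 2.70, that of *TBK1* 11.8 and that of *IRF3* 29.1.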
